A study of Mus musculus with 6 samples.

Results

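The Hox genes of the HoxA, HoxB, HoxC and HoxD clusters were followed in mouse bone marrow stem and progenitor cells labelled as Spred1 knockout or wild type. Members were taken by name: every gene on the array whose design name is Hox, a cluster letter from a to d and a number. This gave 39 genes of 34650 gene names, read by 45 probes. The genotypes compared were Spred1 knockout mice (KO, 3 arrays) and wild-type mice (WT, 3 arrays), all of strain C57BL/6 and with no treatment named in the labels. RNA came from bone marrow cells sorted for c-Kit and Sca-1 and against CD48 and lineage markers, which enriches stem cells and early progenitors, and each sample was labelled with Cy3 and read on its own Agilent array. The product of Spred1 restrains the Ras-ERK kinase cascade. The labels do not give the structure of the deleted allele. The labels do not say whether the arrays stand for separate animals, so p-values measure only the spread between these samples.

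Hox proteins are transcription factors that bind DNA through a homeodomain. Their genes lie in 4 clusters, in the same order as the body regions they pattern, and members at the same place in different clusters are called paralogues and carry the same number. In blood, genes of the HoxA and HoxB clusters are transcribed in stem and progenitor cells and their transcripts decline as cells mature. Hoxa9 and Hoxa10 drive self-renewal and are activated by MLL fusion proteins in leukaemia, and forced expression of Hoxb4 expands stem cells. Cofactors of the TALE class (Meis and Pbx proteins) bind DNA together with Hox proteins.

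What the array reads is a 60-base stretch of each transcript. A pair of these probe sequences is shown because they fall in stretches that code for known parts of Hox proteins, and because their clusters differed in detection. In the first, capitals mark the letters that code for the hexapeptide through which Hox proteins contact Pbx cofactors. In the second, capitals mark letters that code for part of the DNA-recognition helix of the homeodomain.
Hoxa6: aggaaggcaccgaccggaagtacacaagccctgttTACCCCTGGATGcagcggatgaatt
Hoxc11: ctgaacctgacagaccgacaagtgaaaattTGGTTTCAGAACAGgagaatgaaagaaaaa
On mouse build mm9, as the scanner files give it, the Hoxa6 probe lies at chr6:52158194-52158253 on the minus strand. The Hoxc11 probe lies at chr15:102787022-102787081 on the plus strand. The Hoxa6 probe was well above background on all 6 arrays, and the Hoxc11 probe on 0. The capital letters of the Hoxa6 probe were searched as printed, on the strand of the probe, and occurred in 1 of the 55681 probes on the array, the Hoxa6 probe itself. Paralogues resemble each other in these coding stretches, so the probes were also set against one another. Over 984 pairs of probes for different Hox genes, the longest run of identical bases was 11. Only probes were compared, so this does not show whether a probe matches the transcript of a paralogue, which was not tested.

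Promoters are shown for one pair of paralogues, Hoxb4 and Hoxd4, because one was measured on every array and the other on none. Both come from RefSeq on build GRCm38.p6 and hold 250 bases before and 50 after the annotated start, on the plus strand, with CG dinucleotides in capitals. The Hoxb4 window is chr11:96318017-96318316 and the Hoxd4 window chr2:74721728-74722027.
Hoxb4: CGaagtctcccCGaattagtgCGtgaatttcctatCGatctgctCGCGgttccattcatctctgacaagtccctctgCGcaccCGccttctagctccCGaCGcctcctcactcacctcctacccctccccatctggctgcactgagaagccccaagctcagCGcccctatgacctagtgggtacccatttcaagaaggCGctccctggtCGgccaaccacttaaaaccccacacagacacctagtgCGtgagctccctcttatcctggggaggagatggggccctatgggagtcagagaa
Hoxd4: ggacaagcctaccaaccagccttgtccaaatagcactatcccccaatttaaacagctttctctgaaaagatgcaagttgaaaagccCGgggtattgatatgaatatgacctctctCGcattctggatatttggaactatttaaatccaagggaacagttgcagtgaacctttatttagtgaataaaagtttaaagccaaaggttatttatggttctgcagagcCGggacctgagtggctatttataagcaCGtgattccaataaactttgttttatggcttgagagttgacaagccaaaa
The Hoxb4 window held 14 CG and the Hoxd4 window 4. Over the 22 Hox genes with a promoter in the table, this pair does not stand for the rest. Median CG was 13 in the 9 measured genes and 20 in the 11 that were never well above background, and it was 7 over all 32851 promoters. Each Hox gene was read by the first promoter listed for it, while every listed promoter entered the 32851. Whether another start of a gene would change the medians was not tested.

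Pearson correlations between arrays, across features that are not independent replicates, lay between 0.988 and 0.995. The arrays lay on 2 slides, slide 1 with replicates 1 and 2 of each genotype and slide 2 with replicate 3 of each. Of 19605 genes tested, 4 passed an adjusted p of 0.05 in limma (0.0204%). The 3 Spred1 probes differed by 2.44, -0.98 and -0.14 (log2, KO minus WT, limma adjusted p over all probes = 0.0128, 0.0525 and 0.584). For the first of them all KO arrays lay above all WT arrays, and for the next all lay below. A probe outside the deleted part would not check the labels. One array stood apart in markers of another cell type: the summed signal of 10 neutrophil genes was 439, 336 and 423 times the 75th percentile in KO, against 102, 526 and 493 in WT, with WT replicate 1 the low one. Erythroid genes summed to 26.9, 23.7 and 26.9 in KO, against 11.9, 48.2 and 42.6 in WT, again lowest in WT replicate 1. Bright genes weigh most in such a sum. The median log2 signal of the 5 measured erythroid genes was -0.66, -0.67 and -0.62 in KO, against -0.40, 0.18 and -0.09 in WT. By that median all KO arrays lay below all WT arrays. Of the 5, 4 were lower and 1 higher in KO, beside 51.7% lower over all genes, and 0 passed. No marker of the gate passed (Kit, Ly6a, Cd48 and Ptprc, adjusted p from 0.758 to 0.863 in limma). Of 9 stem cell markers, 0 passed, and their median difference was -0.17. At an unadjusted limma p under 0.05, 2 of the 9 were lower in KO, beside 5.24% of all genes tested. Of 6 measured multipotent progenitor markers, 0 passed, and their median difference was 0.42. At that unadjusted p 3 of the 6 were higher, beside 6.97% of all genes tested. Flt3 and Satb1, described further on, belong to these markers. The part of these mixtures in the Hox values was not tested, so the medians, and the genes that moved most, are also given without WT replicate 1. In a sorted population, fewer cells of a type and less RNA per cell cannot be told apart.

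Detection differed between the clusters. Well above background, as the scanner software calls it, means a signal that exceeds the local background beyond its noise. Tested genes are those called so on all 3 arrays of at least 1 genotype. By that rule 9 of 11 HoxA genes, 6 of 10 HoxB genes, 1 of 9 HoxC genes and 0 of 9 HoxD genes were measured, 16 in all, and 15 of them were well above background on all 6 arrays. At the other end, 20 of the 39 were well above background on no array. All values that follow are log2 signal minus the array's 75th percentile, so that 0 is a signal equal to that percentile. The lowest signal called well above background lay between -4.45 and -4.23 over the arrays. A probe's own brightness enters each value, so levels are compared between arrays and not between genes.

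**Figure D1:**
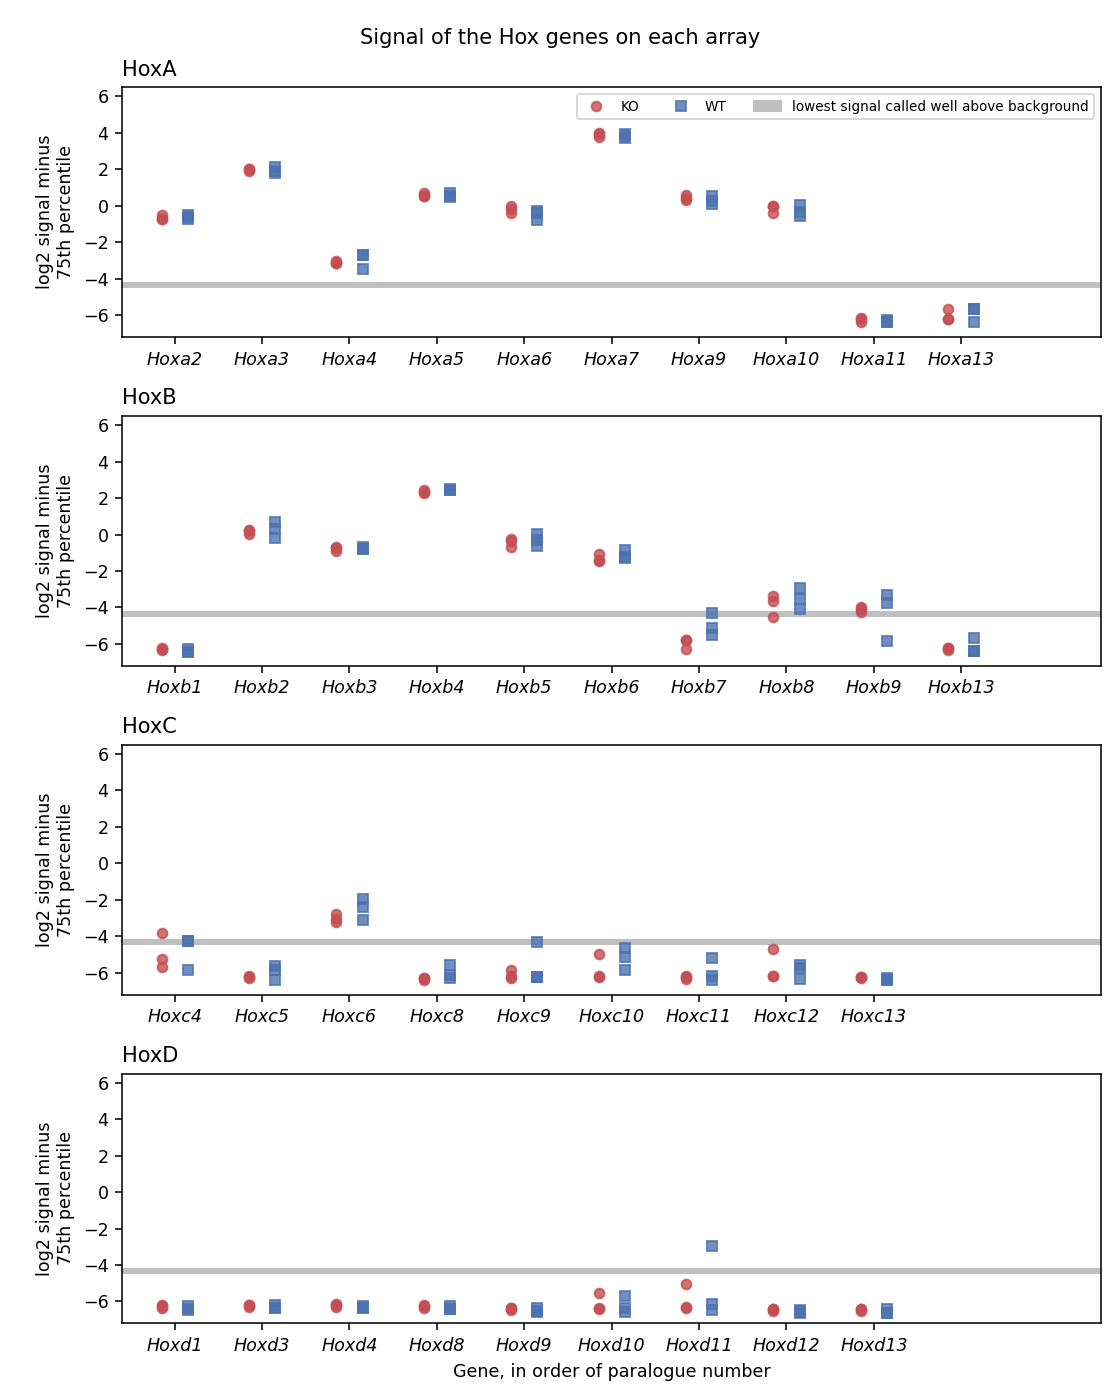
Signal of the Hox genes named in the text on each array, as log2 signal minus the array's 75th percentile (vertical axis), with 3 KO arrays (circles) left of 3 WT arrays (squares) for each gene and the clusters in 4 panels. The grey band spans the lowest signals called well above background, from -4.45 to -4.23; the measured genes lie above it apart from Hoxb8 on 1 KO array, and every HoxD gene lies below it except Hoxd11 on 1 WT array. Heights of different genes are not comparable.

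In HoxA, the measured genes included Hoxa2, Hoxa3, Hoxa4, Hoxa5, Hoxa6, Hoxa7, Hoxa9 and Hoxa10. Hoxa11 and Hoxa13, the genes at the end of the cluster that pattern the limb and the reproductive tract, were not well above background on any array. Their gene-level signals lay between -6.40 and -5.65. The last measured gene of the cluster was thus Hoxa10 in both genotypes.

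Hoxa9, which with Meis1 maintains immature myeloid cells, measured 0.59, 0.33 and 0.40 in KO, against 0.52, 0.10 and 0.28 in WT. The groups overlapped, with KO replicate 1 and WT replicate 1 highest in their genotypes. Its difference, KO minus WT, was 0.14 ± 0.13 (SE, n = 3 each, limma adjusted p = 0.666). Hoxa10, its neighbour, measured -0.01, -0.39 and -0.02 in KO, against 0.06, -0.56 and -0.36 in WT. Replicate 2 was the lowest of its genotype for both neighbours on KO and WT arrays alike. The Hoxa10 difference was 0.14 ± 0.18 (SE, n = 3 each, limma adjusted p = 0.745).

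Hoxa7, a paralogue of the middle group, measured 4.02, 3.77 and 3.94 in KO, against 3.70, 3.81 and 3.96 in WT, a difference of 0.08 ± 0.11 (SE, n = 3 each, limma adjusted p = 0.744). Hoxa6 had the lowest unadjusted p of the 16 genes (0.115). It measured -0.04, -0.40 and -0.18 in KO, against -0.80, -0.28 and -0.41 in WT. The 2 highest arrays were KO and the lowest was WT replicate 1, but KO replicate 2 lay within the WT range. The difference was 0.29 ± 0.16 (SE, n = 3 each, limma adjusted p = 0.485, exact two-sided permutation p = 0.2). Without WT replicate 1 it was 0.14.

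Hoxa5, known from human progenitors to favour myeloid over erythroid differentiation, had the smallest error of the HoxA genes. It measured 0.56, 0.69 and 0.54 in KO, against 0.55, 0.67 and 0.47 in WT, and the arrays of equal replicate number lay close together. The difference was 0.03 ± 0.09 (SE, n = 3 each, limma adjusted p = 0.894). Hoxa4 measured -3.05, -3.17 and -3.15 in KO, against -2.73, -3.47 and -2.71 in WT. The KO arrays sat inside the WT range, and the WT arrays spread widely. Its difference was -0.15 ± 0.21 (SE, n = 3 each, limma adjusted p = 0.758).

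Hoxa2 and Hoxa3, which act in hindbrain and neck patterning, also overlapped between genotypes. Hoxa2 measured -0.71, -0.51 and -0.74 in KO, against -0.61, -0.72 and -0.51 in WT, with a difference of -0.04. Hoxa3 measured 2.04, 1.99 and 1.88 in KO, against 2.12, 1.92 and 1.79 in WT, with a difference of 0.02. For Hoxa2 and Hoxa3 the limma adjusted p was 0.885 and 0.933. Over the 9 HoxA genes, 7 values were higher and 2 lower in KO, and the median difference was 0.08, beside a share of 48.3% higher values over all genes tested.

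In HoxB, the measured genes were Hoxb2, Hoxb3, Hoxb4, Hoxb5, Hoxb6 and Hoxb8. Hoxb1, Hoxb7 and Hoxb13 were not well above background on any array, and Hoxb9 was so on 1 KO and 2 WT arrays. The measured stretch was interrupted at Hoxb7, between 2 measured neighbours, but Hoxb7 had no second probe to set beside this reading. Hoxb7 read -5.82, -5.81 and -6.30 in KO, against -4.29, -5.15 and -5.49 in WT. All KO readings lay below all WT readings, but none of the 6 was called well above background, so Hoxb7 was not tested. WT replicate 1 read above the lowest signal called so on its array (-4.43). The order of such dim readings is not taken as a difference.

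Hoxb4, the stem cell expansion factor, measured 2.32, 2.47 and 2.30 in KO, against 2.43, 2.44 and 2.49 in WT. The WT arrays lay within a narrow range and KO replicate 2 fell inside it, with the other KO arrays below. The difference was -0.09 ± 0.08 (SE, n = 3 each, limma adjusted p = 0.666), the smallest error of the 16 genes. Hoxb3 measured -0.76, -0.71 and -0.90 in KO, against -0.80, -0.78 and -0.68 in WT, and its difference was -0.03 ± 0.09 (SE, n = 3 each, limma adjusted p = 0.887). Loss of Hoxb3 together with Hoxb4 is known to impair stem cell proliferation in mice.

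For Hoxb2, which acts in hindbrain patterning, the arrays measured 0.02, 0.27 and 0.19 in KO, against 0.28, -0.17 and 0.67 in WT. The WT arrays held both the lowest and the highest reading. Hoxb5, whose reporter marks long-term stem cells in mice, measured -0.70, -0.34 and -0.22 in KO, against -0.29, -0.61 and 0.03 in WT. WT replicate 3 was again the highest array. The differences were -0.10 ± 0.21 for Hoxb2 and -0.13 ± 0.19 for Hoxb5 (SE, n = 3 each, limma adjusted p = 0.849 and 0.776).

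Hoxb6 measured -1.40, -1.05 and -1.44 in KO, against -0.83, -1.21 and -1.31 in WT, a difference of -0.18 ± 0.16 (SE, n = 3 each, limma adjusted p = 0.653). Hoxb8, a factor that blocks myeloid differentiation when overexpressed, measured -3.67, -3.35 and -4.55 in KO, against -4.08, -3.56 and -2.96 in WT. KO replicate 3 was the lowest array, not well above background, and WT replicate 3 the highest. Both lie on slide 2. The Hoxb8 difference was -0.33 ± 0.38 (SE, n = 3 each, limma adjusted p = 0.720), the widest error of the 16.

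HoxC was represented by Hoxc6. It measured -2.78, -3.03 and -3.21 in KO, against -1.95, -3.13 and -2.37 in WT. WT replicates 1 and 3 lay above all KO arrays and WT replicate 2 within them. The difference of -0.52 ± 0.29 was the largest in size of the 16 genes (SE, n = 3 each, limma adjusted p = 0.486, exact two-sided permutation p = 0.3). Without WT replicate 1 it was -0.26, and without WT replicate 2 it was -0.85 (limma adjusted p = 0.321). Hoxc4, at the low-numbered end of the cluster and expressed in lymphoid cells, was well above background on 1 KO and 2 WT arrays. It read -5.67, -3.80 and -5.26 in KO, against -4.25, -5.86 and -4.28 in WT, so it was not tested. The remaining HoxC genes, Hoxc5, Hoxc8, Hoxc9, Hoxc10, Hoxc11, Hoxc12 and Hoxc13, were well above background on no array.

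HoxD gave no measured gene. Hoxd1, Hoxd3, Hoxd4, Hoxd8, Hoxd9, Hoxd10, Hoxd12 and Hoxd13 were at background on all 6 arrays, with signals between -6.61 and -5.54. Hoxd11 was well above background on WT replicate 2 alone, where it read -2.93. The other arrays read -5.07, -6.30 and -6.38 in KO, against -6.12 and -6.47 in WT. A second Hoxd11 probe was at background on every array, WT replicate 2 included (-6.40). HoxD lies on the same chromosome as Spred1, 42.4 Mb from it.

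Set together, 0 of the 16 measured genes passed the adjusted threshold, beside 0.0204% of all genes tested, and their adjusted p ran from 0.485 to 0.933. At an unadjusted limma p under 0.05 there were also 0, beside 12.2% of all genes. In 0 of 16 did the KO arrays lie wholly on one side of the WT arrays, beside 19.5% of all genes, and 0 of 16 differed by 1.5-fold, beside 3.37%. The smallest exact permutation p that 3 against 3 arrays allow is 0.1, and the lowest among these genes was 0.2. Precision limits what can be said of each gene: the 95% intervals of the fold, KO over WT, reached down to 0.426 for Hoxb8 and up to 1.60 for Hoxa6. Each gene has its own interval, and the narrowest of those given here, that of Hoxb4, ran from 0.819 to 1.08.

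**Figure D2:**
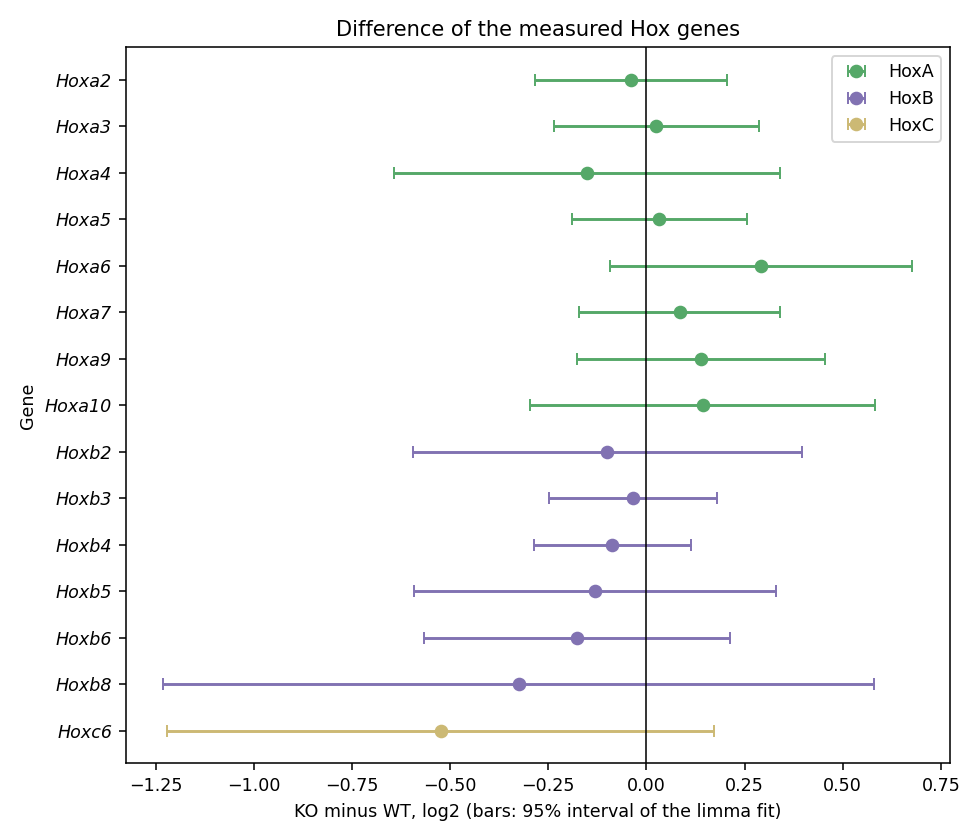
Difference of the measured Hox genes named in the text, KO minus WT on the log2 scale (horizontal axis), with 95% intervals of the limma fit as bars and colours for the clusters. Every interval includes 0; the points run from -0.52 for Hoxc6 to 0.29 for Hoxa6.

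The signs differed between HoxA and HoxB, and within HoxB between the slides. All 6 measured HoxB values were lower in KO (median -0.12), beside 51.7% of all genes tested, and no single HoxB gene passed a test. Within slide 1, with 2 arrays per genotype, 3 of the 6 were lower and 3 higher, and their median was 0.0093. Within slide 2, with 1 array per genotype and no test, 6 of 6 were lower and the median was -0.24. Without WT replicate 3, 3 of 6 were lower and the median was -0.018. Without WT replicate 1 it was -0.09, with 6 of 6 lower. Hoxb8 reached -1.60 within slide 2, against 0.31 within slide 1.

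In HoxA the median difference was 0.052 within slide 1 and 0.086 within slide 2, with 7 of 9 and 6 of 9 values higher in KO. Without WT replicate 1 the HoxA median was 0.10. Without that array single differences moved further: Hoxa9 to 0.25, Hoxa10 to 0.31, Hoxa4 to -0.03, Hoxb6 to -0.03 and Hoxb8 to -0.60. Hoxa3 moved to 0.11, Hoxa7 to 0.03 and Hoxb3 to -0.05, and none of these passed. Hoxa5, Hoxa6, Hoxa9 and Hoxa10 were higher in KO on both slides. On each array, the median of the centred HoxA values minus that of HoxB was 0.22, -0.10 and 0.15 in KO, against -0.02, -0.05 and -0.33 in WT. The lowest KO array lay among the WT arrays.

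**Figure D3:**
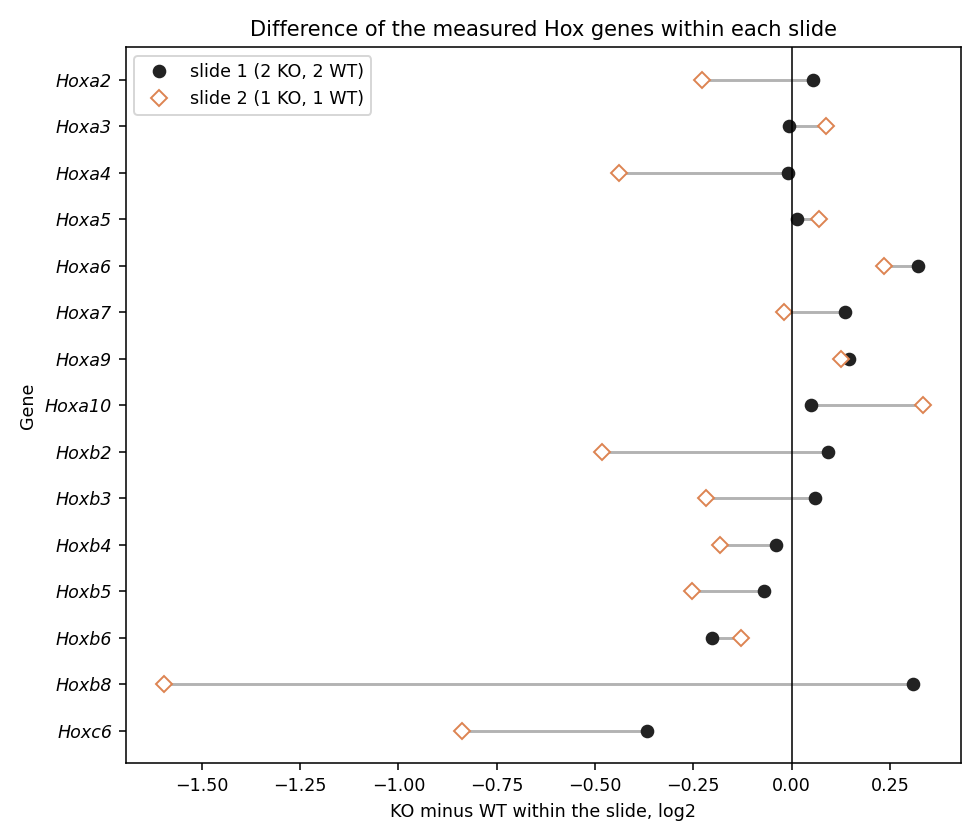
Difference of the measured Hox genes named in the text within each slide, KO minus WT on the log2 scale (horizontal axis): filled circles for slide 1 with 2 arrays per genotype, open diamonds for slide 2 with 1 array per genotype. The 6 HoxB genes all lie below 0 on slide 2, down to -1.60 for Hoxb8, and on either side of 0 on slide 1.

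Several Hox genes carried more than 1 probe. The Hoxa3 probes differed by 0.02 and 0.22 between genotypes, those of Hoxa9 by 0.14 and 0.16 and those of Hoxb3 by -0.03 and -0.06. All 3 pairs thus gave the same sign. Of 19 Hox probes tested, 0 passed in limma and 0 had an unadjusted p under 0.05, beside 0.0324% and 11.5% of all 27798 probes tested.

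The lists of related genes that follow are to be read against all genes tested, of which 0.0204% passed, 12.2% had an unadjusted limma p under 0.05, 51.7% were lower in KO and 19.5% did not overlap between genotypes. The TALE cofactors were measured for 7 of 9 members, since Meis2 and Pknox2 were at background, and 0 of 7 passed. Meis3 differed by 0.26, Pbx2 by -0.13 and Pbx4 by -0.16, none past the threshold. Meis1, the partner of Hoxa9, was named for its role and measured 5.77, 5.96 and 5.88 in KO, against 5.86, 5.98 and 5.92 in WT. The difference was -0.05 ± 0.09 (SE, n = 3 each, limma adjusted p = 0.810).

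Chromatin regulators keep Hox clusters on or off, MLL complexes by methylating histone H3 at active genes and Polycomb complexes by marking silent ones. Of 16 MLL-side genes 0 passed, and 0 had an unadjusted p under 0.05, with 6 values higher and 10 lower in KO and a median of -0.04. The lowest unadjusted p values belonged to Mllt1 (-0.23), Kmt2d (0.35), Rbbp5 (-0.27) and Men1 (-0.15). Of 14 Polycomb-side genes 0 passed, with 1 higher and 1 lower at an unadjusted p under 0.05, beside 12.2% of all genes. Of their values 3 were higher and 11 lower, beside 51.7% lower over all genes, and the median was -0.10. Cbx7, a Polycomb subunit that favours stem cell self-renewal, measured -2.25, -2.10 and -1.96 in KO, against -2.31, -2.42 and -2.69 in WT. All KO arrays lay above all WT arrays, with a difference of 0.37 ± 0.13 (SE, n = 3 each, limma adjusted p = 0.381). Rnf2, a catalytic subunit, differed by -0.20 and Suz12 by -0.14.

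Upstream regulators of the Cdx and retinoic acid group were measured for 7 of 12 genes and 0 passed, with 1 higher and 1 lower at an unadjusted p under 0.05. Cdx1, Cdx2 and Cdx4, homeobox activators of Hox genes in the embryo, were at background on every array. Cyp26b1, an enzyme that degrades retinoic acid, measured 2.33, 2.36 and 2.34 in KO, against 2.16, 1.38 and 0.39 in WT. The KO arrays were nearly equal and lay above all WT arrays, which spread widely, beside 19.5% of all genes without overlap. Its difference was 1.04 ± 0.40 (SE, n = 3 each, limma adjusted p = 0.399). Rarg, a retinoic acid receptor of stem cells, differed by -0.30, Rxra by 0.34 and Gmnn, whose product geminin binds Hox proteins, by -0.13. None of these passed.

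Among 10 genes reported as targets of Hoxa9 or Meis1, 0 passed, and 1 higher and 2 lower had an unadjusted limma p under 0.05, beside 6.97% higher and 5.24% lower of all genes. Cdk6, a cell cycle kinase, measured -1.68, -1.69 and -1.46 in KO, against -1.09, -1.24 and -1.20 in WT, with no overlap. Its difference was -0.43 ± 0.10 (SE, n = 3 each, limma adjusted p = 0.362). Pim1, a survival kinase, measured 1.51, 1.75 and 1.58 in KO, against 2.20, 2.05 and 1.92 in WT, again with no overlap and a difference of -0.44 ± 0.11 (SE, n = 3 each, limma adjusted p = 0.364). Flt3, the receptor of multipotent progenitors, measured 4.88, 4.65 and 4.97 in KO, against 4.51, 4.21 and 4.53 in WT. Its difference was 0.42 ± 0.13 (SE, n = 3 each, limma adjusted p = 0.370), and that of Myb was -0.12.

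Of 25 homeobox genes outside the clusters, 17 were measured and 0 passed, with 2 higher at an unadjusted p under 0.05, beside 6.97% of all genes. Satb1, a chromatin organiser of lymphoid progenitors, measured 2.15, 2.29 and 2.47 in KO, against 1.80, 2.01 and 1.72 in WT, a difference of 0.46 ± 0.12 (SE, n = 3 each, limma adjusted p = 0.365). Nkx2-3, a factor of spleen development, measured 3.20, 3.38 and 3.53 in KO, against 3.03, 2.94 and 3.07 in WT, a difference of 0.36 ± 0.11 (SE, n = 3 each, limma adjusted p = 0.366). In both, all KO arrays lay above all WT arrays, beside 19.5% of all genes without overlap. Hopx differed by 0.22 and Gbx2 by -0.20.

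**Figure D4:**
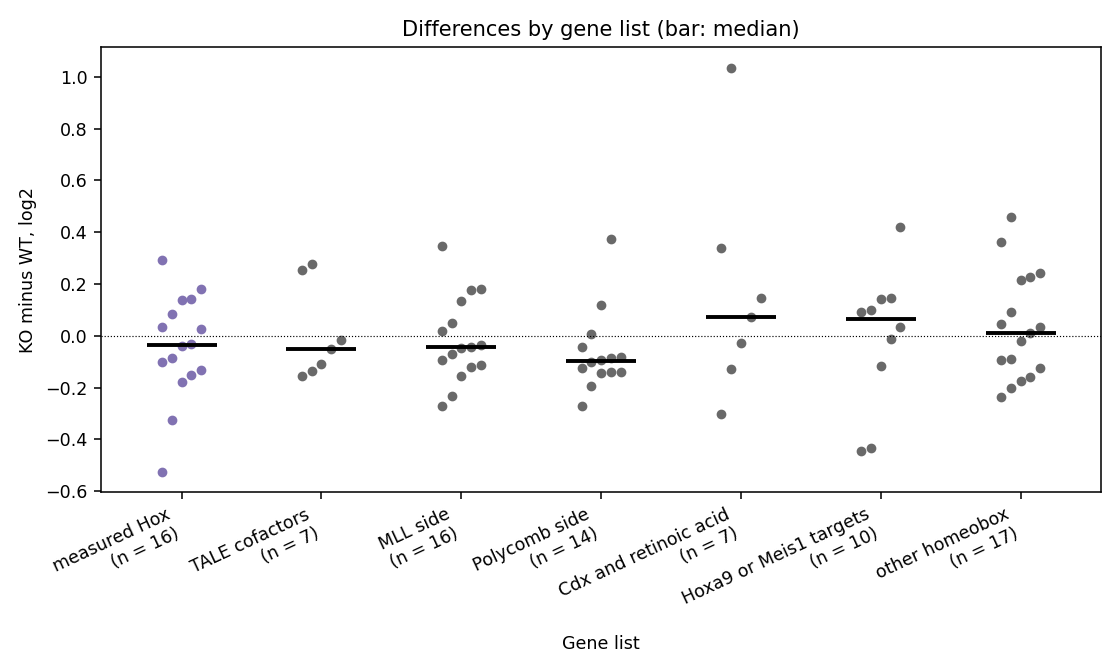
Difference of each measured gene, KO minus WT on the log2 scale (vertical axis), for the 16 measured Hox genes and 6 lists of cofactors, regulators, targets and other homeobox genes (horizontal axis, number measured in brackets). Bars are medians, from -0.10 for the Polycomb list to 0.07 for the Cdx and retinoic acid list, and the highest point is Cyp26b1 at 1.04.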

How the data were processed

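The deposited scanner files hold intensities on a linear scale, background-corrected within each array, per the file headers. The software was Agilent Feature Extraction (version 10.7.3.1 in the submitters' processing notes). The authors' deposited table divides these intensities by 1 constant per array (304 to 368) and served as an alternative. Control spots, and the 92 to 155 outlier spots per array, were left out, and saturation was absent. Replicate spots were averaged by probe, log2 was taken and the array's 75th percentile subtracted. A gene was read by its probe with the highest mean.

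KO was set against WT in limma 3.58.1 (R 4.3.3) on all 19605 genes kept (27798 probes), without covariates, with Benjamini-Hochberg adjustment at 0.05. The fit was tested on simulated data, where recovery was required only of changes larger than those of the measured Hox genes. Arrays give no depth, and their number (3 per genotype) limits precision. Alternatives were other scalings, background correction, filters, a mean over probes, the slide or replicate number as a block, and each array left out.

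The naming rule takes every measured Hox gene and, of each other list, up to 4 genes of smallest p, with Meis1 added; some genes it takes, and 1 probe sequence, are not reported here but stay in the counts and medians. Members and lists were chosen with earlier results of these data known, and genes within or beside the clusters were named with their values in view. Of the 45 Hox probes, 44 matched a current RefSeq accession of the same symbol.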

Additional observations from a re-analysis of the deposited data

How the results depend on the processing

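No Hox gene passed the adjusted threshold under any of 17 alternatives with a test, and the lowest adjusted p over them was 0.254 in limma. Differences of single genes kept their sign in 7 of 16 genes and turned in 22 of 287 values, none of them past the threshold. Without scaling between arrays the median difference was -0.18 over the 16 genes, -0.0588 for HoxA and -0.26 for HoxB, but there the median of all genes was -0.15. Within slide 1 the medians were 0.0499 over all and 0.00935 for HoxB, and within slide 2 -0.16 and -0.24. Leaving out 1 array at a time, the count at an unadjusted limma p under 0.05 ran from 0 to 2, the 2 being Hoxc6 (-0.85) and Hoxa4 (-0.40) without WT replicate 2, and the HoxB median from -0.26 without WT replicate 2 to -0.0180 without WT replicate 3. With no filter on dim probes the count was 1, Hoxb7, which was well above background on no array. The number of genes passing over the whole array was 4, against 0 to 4 with 1 array left out, 0 within slide 1, 0 with no filter, 1 with quantile normalization, 1 with the filter on all 6 arrays, 2 without scaling, 9 with normexp and quantile normalization together and 6 with the mean over probes. With the replicate number as a block 0 Hox genes and 0 genes in all passed (lowest Hox adjusted p = 0.465). Deviations of arrays of equal number, which also share a slide, correlated by -0.03, 0.15 and 0.07. KO replicate 1 correlated best with WT replicate 3 (0.18), while KO replicates 2 and 3 each correlated best with the WT array of their own number. With 3 arrays per genotype, these values cannot decide whether the arrays were paired. Apart from Hoxc6, no HoxC or HoxD gene passed the filter on signal over background. Whether the transcripts were absent or their probes read poorly was not tested.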

Other observations

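Other transcripts inside the clusters added to the picture of which clusters were read. Between the outermost Hox probes of each cluster lay 38 probes for other transcripts, of which 17 were measured and 0 passed in limma. Their median difference was 0.0037. One had an unadjusted p under 0.05 (11.5% of all probes did): the non-coding RNA in the HoxA cluster that the array names 2700086A05Rik and current annotation Hoxaas3. It measured 1.76, 1.46 and 1.60 in KO, against 1.31, 1.27 and 1.39 in WT. All KO arrays lay above all WT arrays, beside 18.7% of all probes without overlap, with a difference of 0.28 ± 0.11 (SE, n = 3 each, limma adjusted p = 0.415 over all probes). The HoxB non-coding transcript Hoxb5os differed by 0.01 and Hoxa11os, opposite Hoxa11, by -0.08. Hoxa11os was well above background on all 6 arrays although the Hoxa11 probe was so on none.

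The HoxD cluster was not wholly dark. With 0 of 9 HoxD genes measured, the long non-coding RNA Haglr (6720416L17Rik on the array) read -1.36, -1.70 and -1.76 in KO, against -1.59, -1.78 and -1.70 in WT. Evx2, the homeobox gene 15.6 kb beside the cluster, read -0.35, -0.36 and -0.35 in KO, against -0.56, -0.43 and -0.35 in WT on one probe, while a second Evx2 probe was at background on all 6 arrays. Neither differed between genotypes past the threshold (limma adjusted p = 0.810 for 6720416L17Rik and 0.691 for Evx2). Evx1, beside HoxA, was at background. Hoxd3os1, HOTAIR and Gm53 were too.

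Beside the clusters, within 500 kb, 96 probes were measured and 0 passed, with 7 higher and 4 lower at an unadjusted limma p under 0.05. Together these are close to the 11.5% of all probes. One probe of Snx11, a sorting nexin beside HoxB, read -3.61, -3.30 and -3.80 in KO, against -2.81, -3.12 and -2.93 in WT. Its difference was -0.61 ± 0.15 (SE, n = 3 each, limma adjusted p = 0.381), while the other Snx11 probes differed by 0.04 and -0.04. Calcoco2, an autophagy receptor gene beside HoxB, differed by 0.84 ± 0.28 (SE, n = 3 each, limma adjusted p = 0.400).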
